A study of Mus musculus with 28 samples.

Results

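Tail tendon RNA of 7 Fosl-2(Tg) mice and 6 WT controls of the established cohort was compared across all expressed genes. These 13 libraries were chosen by the genotype and stage in their titles, out of 28 in the series. Both genotypes were labelled as C57BL/6, the J substrain being named for the transgenic mice in the study's text, and, per the study's text, older than 14 weeks. The Fosl-2(Tg) mice carry murine *Fosl2* with shortened untranslated regions at a random insertion site, driven by the H2Kb major histocompatibility complex class I promoter and linked to an eGFP reporter, so expression is not limited to tendon cells. WT controls were non-transgenic mice. Each library came from the tail tendon fascicles of 1 mouse, and each genotype held 1 male (WT replicate 5 and Fosl-2(Tg) replicate 5), the other 11 mice being female. The other 15 libraries, all from males of the early cohort aged 6 to 8 weeks, were used only to ask whether a genotype difference depended on the cohort.

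*Fosl2* encodes Fra-2, a basic leucine zipper protein of the Fos family. It binds DNA as a dimer with Jun proteins, and this AP-1 complex controls genes of matrix turnover, inflammation and the response to growth factors. Tendon fascicles consist mainly of collagen-producing fibroblasts (tenocytes) in aligned matrix, with resident macrophages, vessels and nerve endings in smaller numbers.

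Counts per library summed to between 12186263 and 66894396 in WT (median 26998780) and between 9664327 and 34236725 in Fosl-2(Tg) mice (median 16638405). The 20 tendon fibroblast markers were abundant in every library, and their summed level (in CPM, counts scaled to library size with TMM factors) lay between 125021 and 233143 in WT and between 9791 and 100436 in Fosl-2(Tg) mice, the lowest value being that of Fosl-2(Tg) replicate 5. Of these markers, 6 fell and none rose, and none was called without WT replicate 1 or without Fosl-2(Tg) replicate 1 or 2. The summed level of 28 skeletal muscle markers varied more than 10-fold within each genotype, from 367 to 79280 CPM (median 10485) in WT and from 249 to 23073 (median 1780) in Fosl-2(Tg) mice. None of the 28 muscle markers passed the test, all 28 having negative estimates (median log2 fold change -1.83). Summed macrophage markers lay between 1222 and 2142 CPM in WT and between 1719 and 2576 in Fosl-2(Tg) mice, with 3 of 20 past the test, all higher. Summed T and NK cell markers lay between 6.57 and 19.7 CPM over both genotypes, B and plasma cell markers between 1.5 and 16, neutrophil markers between 1.53 and 14.4 (highest in Fosl-2(Tg) replicate 6), and keratinocyte and skin markers between 52.9 and 149, none of them with a called member. Of the defining genes, *Cd3e*, *Igkc* and *Krt5* had at most 0.088 CPM in any library, *S100a9* at most 1.78 and *Cd79a* between 0.155 and 0.811. Summed pericyte and smooth muscle markers had medians of 1096 CPM in WT and 846 in Fosl-2(Tg) mice. In whole tissue, fewer cells of a type and less RNA per cell cannot be told apart, and this holds for every gene below.

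In edgeR's quasi-likelihood test, 1032 of 15862 genes (6.51%) differed at a false discovery rate (FDR) of at most 0.05, of which 498 (3.14%) were higher and 534 (3.37%) lower in Fosl-2(Tg) mice. A change of at least 1 on the log2 scale as well was met by 311 genes (1.96%), called DEGs here, 127 of them higher (0.801%) and 184 lower (1.16%). All Fosl-2(Tg) mice lay on the same side of all WT mice for 610 genes (3.85%). The log2 fold change of all genes had a median of 0.01, and 50.7% of the estimates were positive. Leaving out single libraries moved the number of genes past the FDR threshold between 361 (without WT replicate 1) and 1166 (without Fosl-2(Tg) replicate 7). The counts of function lists below are given beside these shares. The lists were chosen with earlier results of these data known, so setting their shares against those of all genes is no test of a list. Small counts moved most: of 125 counts of called members by list and direction, 96 dropped by more than 1.5 times and 56 reached 0 when some single library was left out, and 81 were 0 in the 8 libraries under 10000 CPM of muscle markers. The called members of the glucocorticoid, Krüppel-like, C/EBP-type and cytokine receptor lists were all higher, and those of the growth factor, Wnt and cadherin lists all lower. Some lists share members, *Klf15* and *Cebpd* being counted in the glucocorticoid list as well. Differences between lists were not tested.

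**Figure D1:**
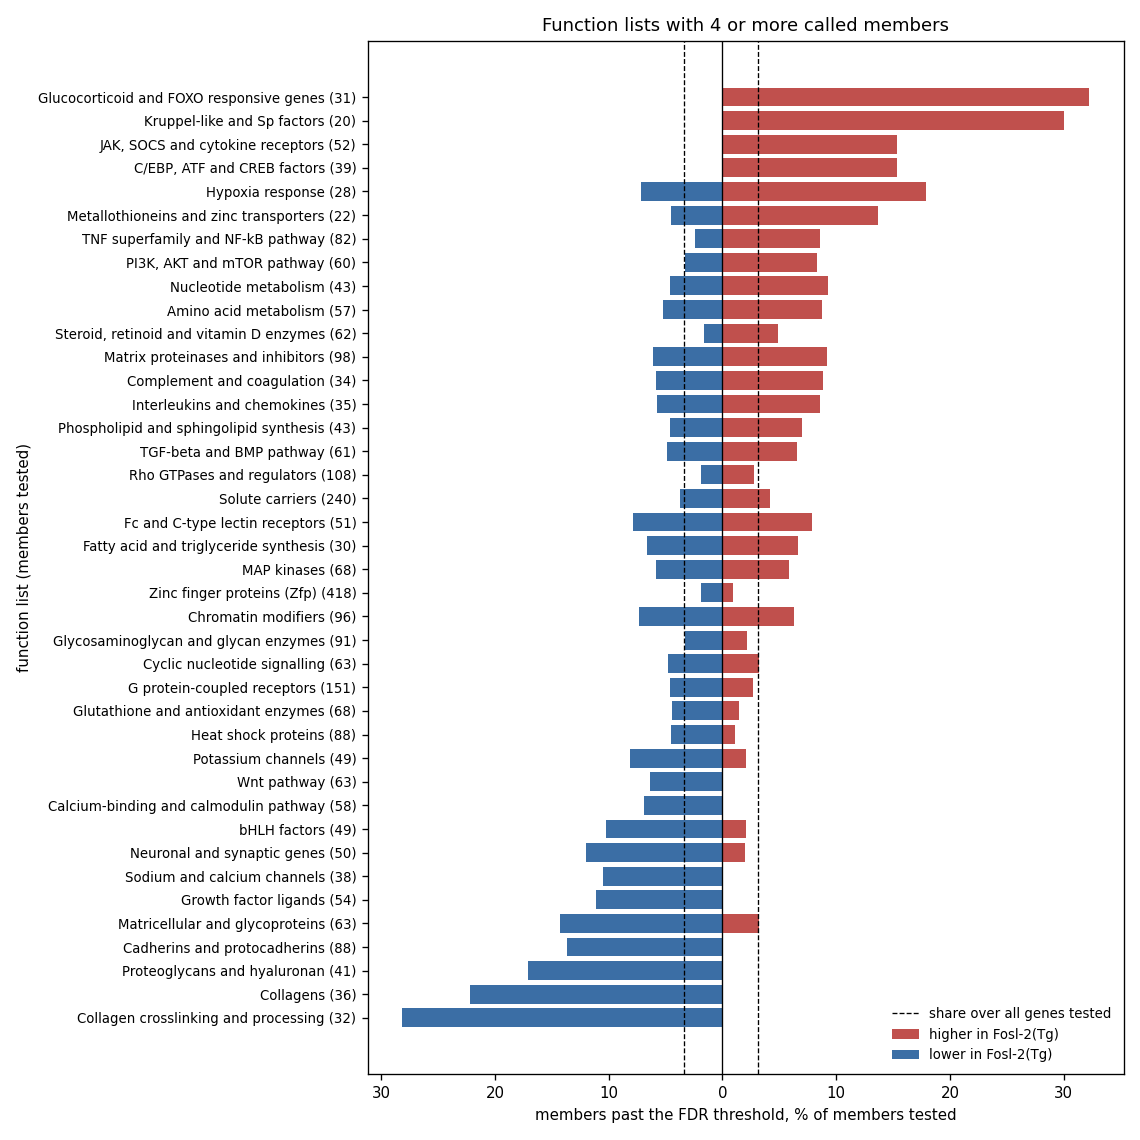
Share of tested members past the FDR threshold in the 40 function lists with at least 15 members tested and at least 4 called, chosen for plotting by that number. Bars to the right count members higher and bars to the left members lower in Fosl-2(Tg) mice, in percent of the members tested (number after each name), and dashed lines mark the shares over all genes tested, 3.14% and 3.37%. The glucocorticoid and FOXO list reached 32.3%, all higher.

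*Fosl2* itself lay between 94.1 and 202 CPM in WT mice (median 127) and between 145 and 192 in Fosl-2(Tg) mice (median 177). The genotypes overlapped, and the difference did not pass the test (log2 fold change 0.38 ± 0.15 SE, FDR 0.141 by edgeR). The overlap came from WT replicate 2 (202 CPM), the other WT mice lying between 94.1 and 144 CPM. Without WT replicate 2, *Fosl2* passed the FDR threshold. These counts do not separate the transgene from the endogenous gene. Among 11 tested members of the AP-1 family, only *Jdp2*, a repressor that dimerizes with Jun proteins, was called, at 43.1 to 50 CPM in WT and 21.7 to 40.9 in Fosl-2(Tg) mice (log2 fold change -0.53). This call was lost in 8 of the 13 fits that left out 1 library, among them those without any 1 WT library. *Fos*, *Jun* and *Junb* had estimates of 0.08, 0.31 and 0.57 that did not pass the test.

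The AP-1 consensus TGANTCA, which reads the same on both strands, was searched in 300-base promoter windows (250 bases before to 50 after the transcription start; RefSeq, GRCm38.p6). It was present in 8.97% of all 27025 promoters of the table and in 6.39% of the 10953 tested genes that could be matched. Among genes past the FDR threshold, 31 of 344 matched promoters of genes higher in Fosl-2(Tg) mice held the motif (9.01%), as did 23 of 388 of those lower (5.93%). For DEGs the shares were 9 of 87 higher (10.3%) and 7 of 121 lower (5.79%). These are counts of letters, given without a test, and not evidence of binding. Among the 24 genes with the largest changes, described next, the motif was found once in each of 2 matched promoters. Both windows are shown to let the motif be read in its context, with the 7 motif bases in capitals, and both genes lie on the minus strand. The *Unc93a2* site starts 177 bases before the transcription start (chr17:7385465-7385493), and the *C1qtnf6* site 169 bases before it (chr15:78529803-78529831).
Unc93a2: gccttcccttgTGACTCAcaatcctgcct
C1qtnf6: cccagggcattTGACTCAaacaggtcccc
*Unc93a2* was among the genes that rose most and *C1qtnf6* among those that fell most.

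The 12 DEGs with the largest increases whose genotypes did not overlap, collagens, macrophage genes of the study's text and unnamed transcripts aside, covered transporters, DNA-binding proteins, enzymes and surface receptors. *Slc39a8* (chromosome 3, 135531040 to 135594333, GRCm39), a zinc and manganese importer, lay between 5.46 and 8.97 CPM in WT (median 6.99) and between 10.7 and 356 in Fosl-2(Tg) mice (median 46.2; log2 fold change 3.53 ± 0.72, FDR 0.019). Its spread among Fosl-2(Tg) mice was wide, and without replicate 5, which gave the highest value, the log2 fold change was 2.37. *Slc10a6*, a transporter of sulfated steroids, lay between 0.59 and 1.24 CPM in WT and between 2.78 and 29 in Fosl-2(Tg) mice (3.17 ± 0.58, FDR 0.0139). *Unc93a2*, of a family of membrane proteins, lay between 0.451 and 3.42 against 4.27 to 25.5 CPM (2.83 ± 0.55). Fosl-2(Tg) replicate 5 gave the highest value of all 3 genes.

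*Hmga2* (chromosome 10, 120197173 to 120313095), a chromatin protein of embryonic and growing tissue, had one of the 5 lowest FDRs. It lay between 2.54 and 5.5 CPM in WT (median 3.68) and between 9.38 and 43.8 in Fosl-2(Tg) mice (median 20.8; 2.50 ± 0.31, FDR 0.00465), with no overlap. It was called under all 25 other settings. The other surface and secreted proteins among the 12 were *Adam8*, a metalloproteinase of leukocytes (2.38 ± 0.67, FDR 0.0496), *Ms4a4a*, a membrane protein of macrophages with close relatives in its gene family (2.27 ± 0.34), *Ptger2*, a prostaglandin E2 receptor (2.23 ± 0.31) and *Clec7a*, the beta-glucan receptor Dectin-1 (1.92 ± 0.41). *Adam8* reached 29.4 CPM in Fosl-2(Tg) replicate 7 against a Fosl-2(Tg) median of 2.62, and its log2 fold change without that mouse was 1.25. Its call was lost in 10 of the 13 fits that left out 1 library. Of the enzymes, *Arg1*, which cleaves arginine, lay between 2.1 and 3.52 CPM in WT and between 3.81 and 40.8 in Fosl-2(Tg) mice (1.95 ± 0.52, FDR 0.0422), again with its highest value in replicate 7 and a log2 fold change of 1.11 without it, and its call was lost in 8 of those 13 fits. *Cth*, which makes cysteine from cystathionine, lay between 0.737 and 1.61 against 2.23 to 9.51 CPM (1.93 ± 0.36). *Nfil3* is described with the transcription factors, and *Ccdc168*, a gene of little known function, rose from 0.541 to 1.11 CPM in WT to 1.45 to 10.8 (2.12 ± 0.46).

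The 12 largest decreases by the same rule included membrane, intracellular and secreted proteins. *Mlc1* (chromosome 15, 88840084 to 88863356), a membrane protein of astrocytes that regulates chloride channels, lay between 0.674 and 2.61 CPM in WT (median 2.20) and between 0.088 and 0.424 in Fosl-2(Tg) mice (median 0.278; -3.13 ± 0.38, FDR 0.00465). *Srcin1* (chromosome 11, 97400161 to 97467012), an inhibitor of the kinase Src, lay between 20.8 and 42.4 CPM in WT (median 28.4) and between 1.32 and 8.72 in Fosl-2(Tg) mice (median 3.83; -2.63 ± 0.32, FDR 0.00465). Neither gene overlapped between genotypes. The channel gene *Kcnb2* and the receptor gene *Adra1a* are given with their families. *Nalf1*, a partner of a sodium leak channel, lay between 0.985 and 2.29 CPM in WT and between 0.101 and 0.568 in Fosl-2(Tg) mice (-2.05 ± 0.34). *Klk1b24*, a kallikrein whose near-identical relatives make its counts uncertain, had at most 0.811 CPM in Fosl-2(Tg) mice and at least 1.09 in WT.

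Of the secreted proteins in this group, *Sparc*, a collagen-binding glycoprotein, was the most abundant, with 12360 to 21060 CPM in WT (median 18021) and 565 to 9655 in Fosl-2(Tg) mice (median 2664; -2.19 ± 0.52, FDR 0.0292). *Matn3*, a cartilage matrix protein, lay between 16.9 and 29.1 against 0.352 to 11.3 CPM (-2.50 ± 0.56), and *Ptn*, the heparin-binding growth factor pleiotrophin, between 21.7 and 56 against 0.704 to 18.5 CPM (-2.35 ± 0.57, FDR 0.0312). *Nrep*, a regulator of fibroblast migration, lay between 222 and 716 against 14.2 to 150 CPM (-2.34 ± 0.42). *C1qtnf6*, a C1q- and TNF-related protein, and *Spon2*, the matrix protein mindin, had WT values of at least 170 and 121 CPM and Fosl-2(Tg) values of at most 94.4 and 69.8 (-2.32 and -2.30). Spread among Fosl-2(Tg) mice exceeded that among WT mice for each of these secreted proteins on a log scale, and the calls of *Ptn* and *Sparc* were lost in 8 and 6 of the 13 fits that left out 1 library.

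**Figure D2:**
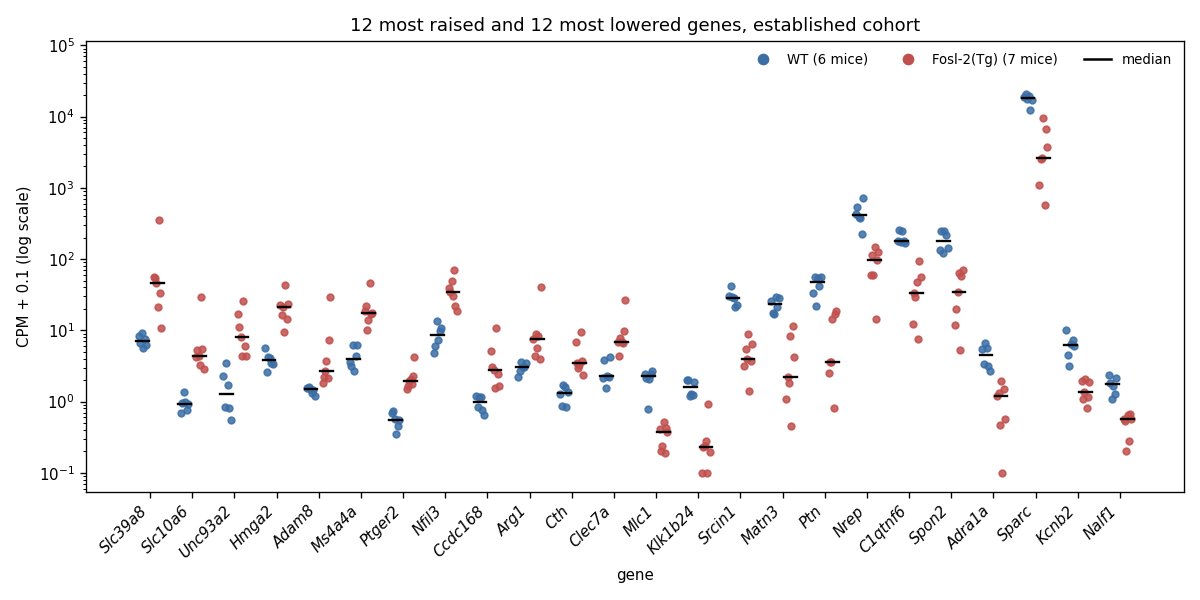
CPM plus 0.1 on a log axis of the 24 genes with the largest changes by the naming rule, 1 point per mouse (6 WT in blue, 7 Fosl-2(Tg) in red) with a bar at each median. Every Fosl-2(Tg) point lies above every WT point for the 12 raised genes and below for the 12 lowered genes, which the rule required, and single mice stand far above the rest for *Slc39a8* (356 CPM), *Adam8* (29.4 CPM) and *Arg1* (40.8 CPM).

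Among C/EBP, ATF, CREB and related transcription factors, basic leucine zipper proteins like Fra-2 itself, 6 of 39 rose and none fell. The share higher among all genes was 3.14%. Of the 6, only *Cebpd* is a C/EBP factor, and none is an ATF or CREB factor. *Nfil3* (chromosome 13, 53121245 to 53137010), a repressor of the circadian clock and of cytokine genes, lay between 4.72 and 13.2 CPM in WT (median 8.50) and between 18.4 and 71.1 in Fosl-2(Tg) mice (median 34.0; 2.14 ± 0.33, FDR 0.00796), with no overlap. *Cebpd*, an acute-phase regulator, lay between 24.5 and 81.1 against 71.9 to 169 CPM (1.33 ± 0.26, FDR 0.0157), with overlap. *Maff*, *Bach1*, *Bach2* and *Nfe2l3*, which bind antioxidant response elements or related sites, rose by 0.71, 0.53, 0.62 and 0.75. The list's median was 0.10, against 0.01 for all genes. With 1 library left out, 5 to 7 members were called higher.

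The Krüppel-like and Sp factors, zinc finger proteins that bind GC-rich sites, had 6 of 20 members higher and none lower. *Klf15*, a factor of fasting metabolism (chromosome 6, 90438998 to 90452220), lay between 2.54 and 14.8 CPM in WT (median 9.63) and between 10.9 and 104 in Fosl-2(Tg) mice (median 28.8; 2.28 ± 0.50, FDR 0.0225). The genotypes overlapped in *Klf15*, since Fosl-2(Tg) replicate 7 (10.9 CPM) was within the WT range. *Klf6*, an early-response factor of injury, lay between 194 and 263 against 290 to 531 CPM (0.67 ± 0.13, FDR 0.0174), and *Klf11*, a TGF-beta-inducible factor, between 20 and 32.2 against 33.7 to 75.5 CPM (0.72 ± 0.19), both without overlap. *Klf3*, *Klf13* and *Sp4* rose by 0.34 to 0.51. Without WT replicate 1, 1 member of the list was called.

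Among basic helix-loop-helix factors, 5 of 49 fell and 1 rose (12.2% called against 6.51% of all genes). The list's median was -0.06, with 19 of 49 estimates positive. All 6 called members were separate between genotypes, as were 3.85% of all genes, called or not. *Scx*, the tendon lineage factor scleraxis, lay between 82 and 125 CPM in WT (median 101) and between 8.1 and 64.7 in Fosl-2(Tg) mice (median 45.6; -1.27 ± 0.34, FDR 0.0444). *Id2*, an inhibitor of such factors and a BMP target, lay between 41.7 and 63 against 10.8 to 28.2 CPM (-1.40 ± 0.21, FDR 0.00721), and *Bhlhe41*, a clock repressor, between 148 and 245 against 46.2 to 111 CPM (-1.06 ± 0.18). *Epas1*, the hypoxia-inducible factor 2 alpha, and *Tfeb*, a lysosomal regulator, fell by 0.80 and 0.58. The exception was *Mitf*, of the same subfamily as *Tfeb*, which lay between 34.6 and 60.4 CPM in WT and between 72 and 144 in Fosl-2(Tg) mice (1.04 ± 0.16, FDR 0.00844). With 1 library left out, 3 to 7 members were called lower, the lowest count being that without any 1 WT library or Fosl-2(Tg) replicate 1, 2 or 3.

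No nuclear receptor rose and 3 of 35 fell, a share of 8.57% against 6.51% of all genes. *Esrrg*, an oestrogen-related receptor of oxidative metabolism, lay between 1.61 and 11.5 CPM in WT against 0.85 to 3.2 CPM in Fosl-2(Tg) mice, with overlap. Its log2 fold change was -1.86 ± 0.43 (FDR 0.0271). WT replicates 5 and 6, with the highest summed muscle markers (79280 and 49875 CPM), had its highest values (11.5 and 8.47 CPM). The part of muscle content was not tested here. *Thra*, a thyroid hormone receptor, had -0.49. *Nr3c1*, the glucocorticoid receptor, had -0.34, with 379 to 460 CPM in WT and 284 to 373 in Fosl-2(Tg) mice. Of the HOX genes, 3 of 29 fell (*Hoxb9* -0.90, *Hoxb13* -0.76 and *Hoxa13* -0.72), and of the NFI, NFAT and MEF2 factors 2 of 16 (*Nfic* -0.94 and *Nfix* -0.73). None of the nuclear receptors was called without Fosl-2(Tg) replicate 1, no HOX gene without WT replicate 1 or 4, and no NFI, NFAT or MEF2 factor without WT replicate 1, 2, 4 or 5 or Fosl-2(Tg) replicate 1. Chromatin proteins changed in both directions, 6 higher and 7 lower of 96. Beside *Hmga2*, the histone demethylases *Kdm7a* and *Kdm3a* and the methyltransferase *Setd4* rose by 0.58, 0.54 and 0.64. *Tet1*, which oxidizes methylated cytosine, lay between 30.3 and 47.9 CPM in WT and between 8.1 and 27.2 in Fosl-2(Tg) mice (-1.24 ± 0.23, FDR 0.0133), and the DNA methyltransferase *Dnmt3a* fell by 0.39. Without WT replicate 1, 2 chromatin genes were called higher, and 2 were called lower without WT replicate 2 or 5 or Fosl-2(Tg) replicate 1 or 2. The large family of Zfp, Zbtb and related zinc finger proteins had 12 of 418 members called, a share of 2.87% below the 6.51% of all genes.

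Genes known to answer to glucocorticoid or, through FOXO factors, to low insulin formed the list with the largest share of raised members among lists with at least 15 members tested. Of 31 tested, 10 rose, none fell, 29 had positive estimates, and the median log2 fold change was 0.75. *Fkbp5*, a chaperone of the glucocorticoid receptor, lay between 39 and 84.6 CPM in WT (median 60.7) and between 79.3 and 371 in Fosl-2(Tg) mice (median 127; 1.38 ± 0.32, FDR 0.0268). *Errfi1*, an inhibitor of the EGF receptor, lay between 41.7 and 94.3 against 83.4 to 281 CPM (1.28 ± 0.31), and *Txnip*, an inhibitor of glucose uptake, between 550 and 899 against 736 to 2785 CPM (1.05 ± 0.25). In each of the 3 genes the lowest Fosl-2(Tg) mouse was within the WT range.

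The metallothioneins *Mt1* and *Mt2*, which bind zinc, rose by 1.09 and 0.97, the transcriptional repressor *Zbtb16* by 1.05, *Ccng2*, a cyclin of growth arrest, by 0.94, and *Irs2*, an insulin receptor substrate, by 0.83. Members that did not pass the test included *Per1* (0.66, FDR 0.0609), *Sgk1* (0.94, FDR 0.0553) and *Tsc22d3* (0.72, FDR 0.129). None of the 10 raised members was fully separate between genotypes. The count ranged from 2 (without WT replicate 1) to 13 with single libraries left out. It was 5 in females alone and 0 in the 8 libraries under 10000 CPM of summed muscle markers. Those 8 libraries gave 113 genes past the FDR threshold in all, against 1032.

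**Figure D3:**
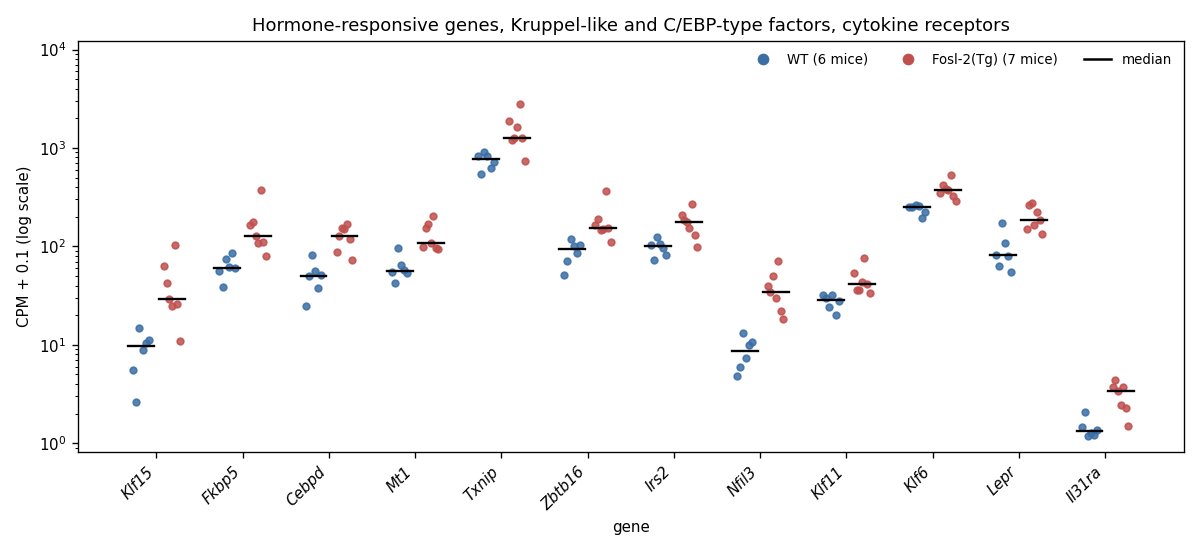
CPM plus 0.1 on a log axis of hormone-responsive genes, Krüppel-like and C/EBP-type factors and cytokine receptors, 1 point per mouse with a bar at each median. The Fosl-2(Tg) medians are above the WT medians in all 12 genes, and the 2 groups are fully separate for *Nfil3*, *Klf11* and *Klf6* but overlap for *Fkbp5* and *Klf15*.

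Receptors and regulators of JAK and STAT signalling followed, with 8 of 52 members higher and none lower (median 0.23). *Il6ra*, the interleukin-6 receptor chain, lay between 23.9 and 34.4 CPM in WT (median 29.3) and between 37.2 and 92 in Fosl-2(Tg) mice (median 54.0; 0.91 ± 0.18, FDR 0.0179). *Osmr*, the oncostatin M receptor chain, lay between 80.4 and 137 against 140 to 307 CPM (0.74 ± 0.19), and *Ifngr1*, of the interferon-gamma receptor, between 58.2 and 78.6 against 96.6 to 179 CPM (0.85 ± 0.14, FDR 0.00929). These 3 receptor genes did not overlap between genotypes.

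*Lepr*, the leptin receptor, had medians of 81.3 CPM in WT and 187 in Fosl-2(Tg) mice (1.10 ± 0.26), and *Il31ra*, which pairs with *Osmr*, between 1.09 and 1.98 against 1.39 to 4.27 CPM (1.15 ± 0.25), with overlap in both. The growth hormone receptor *Ghr*, the feedback inhibitor *Socs3* and the receptor *Il17rb* rose by 0.63, 0.67 and 0.49. With single libraries left out, 3 (without WT replicate 4 or 5) to 9 were called. Of the TNF superfamily and NF-kB pathway, 7 of 82 rose and 2 fell. Those raised included *Tlr8* (0.90), *Tlr4* (0.89) and the NF-kB regulators *Tnfaip3* (0.49) and *Nfkbiz* (0.44). The RNA sensor *Tlr3* (-0.82) and the adaptor *Traf3* (-0.47) fell. Without WT replicate 1 or 5, 2 members of this list were called higher. Interferon-stimulated genes held 1 called member of 39, *Gbp2* (1.00 ± 0.26).

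Among G protein-coupled receptors, 4 of 151 rose and 7 fell, a total share of 7.28% against 6.51% for all genes. The raised count was 1 without WT replicate 1, 4, 5 or 6 or Fosl-2(Tg) replicate 1, and the lowered count was 1 in the 8 libraries low in muscle markers. The members called lower included 4 receptors for adrenaline, noradrenaline or histamine. *Adra1a*, the alpha-1A adrenoceptor (chromosome 14, 66872700 to 67012152), lay between 2.61 and 6.63 CPM in WT (median 4.34) and between 0 and 1.82 in Fosl-2(Tg) mice (median 1.08; -2.28 ± 0.48, FDR 0.0202). *Adra2c* lay between 10.7 and 24.8 against 1.14 to 10.3 CPM (-1.77 ± 0.40), *Adrb1* between 7.34 and 11.2 against 2.99 to 6.96 CPM (-0.63 ± 0.17) and the histamine receptor *Hrh3* between 0.702 and 1.76 against 0.155 to 0.509 CPM (-1.71 ± 0.30). These 4 were separate between genotypes, as were 9 of the 11 called members of the list and 3.85% of all genes. How many receptors for these amines were tested was not counted. The *Adra2c* call was lost in 3 of the 13 fits that left out 1 library, those of *Adra1a* and *Hrh3* in 0. Vascular smooth muscle also expresses adrenoceptors, and of 14 pericyte and smooth muscle markers tested 2 fell, *Smtn* (-1.0) and *Acta2* (-0.72), with a list median of -0.86. Their part in the result was not tested, here or for *Gucy1a2* and *Kcnmb1* below.

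Both called prostaglandin E2 receptors were higher. *Ptger2* lay between 0.252 and 0.626 CPM in WT and between 1.39 and 4.08 in Fosl-2(Tg) mice, and *Ptger4* between 11.4 and 14.6 against 15.4 to 24.4 CPM (0.44 ± 0.11). The complement C3a receptor *C3ar1* rose by 0.52 and the orphan receptor *Gpr152* by 1.41, while *P2ry13*, an ADP receptor, and the orphan *Gpr27* fell by 1.23 and 1.44. Downstream, *Gucy1a2* (chromosome 9, 3532778 to 3905741), a subunit of the nitric oxide-sensing guanylate cyclase, was among the 5 genes with the lowest FDR. It lay between 3.48 and 5.77 CPM in WT (median 4.38) and between 0.968 and 2.19 in Fosl-2(Tg) mice (median 1.39; -1.70 ± 0.20, FDR 0.00465). *Gnas*, the stimulatory G protein, and the cyclic AMP phosphodiesterase *Pde7b* fell by 0.54 and 0.90.

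Growth factor genes were called only as lower, 6 of 54. Beside *Ptn*, these were *Ctf1* (cardiotrophin 1, -1.22, FDR 0.0499), *Fgf1* (-1.05), *Il34*, a ligand of the macrophage receptor Csf1r (-0.90), and the platelet-derived factors *Pdgfa* (-0.73) and *Pdgfd* (-0.49). *Pdgfa* lay between 49.2 and 62.5 CPM in WT and between 16.4 and 42.5 in Fosl-2(Tg) mice, without overlap. The count was 0 without WT replicate 1 and reached 7 without other single libraries. Of the Wnt pathway, 4 of 63 fell and none rose. This total share of 6.35% was near the 6.51% of all genes, of which 3.37% were lower. All 4 encode inhibitors or modulators of Wnt signals. *Wif1*, which binds Wnt ligands, lay between 686 and 1315 CPM in WT (median 1087) and between 101 and 716 in Fosl-2(Tg) mice (median 324; -1.58 ± 0.32, FDR 0.0192). *Sfrp4*, *Dkk2* and *Nkd1* had -1.41, -1.05 and -0.99, and each of the 4 overlapped between genotypes in at least 1 mouse. Without WT replicate 2, 1 of the list was called.

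Other signalling families changed in both directions. In the TGF-beta and BMP pathway, 4 of 61 rose (*Inhbb*, an activin subunit, 0.87; *Tgfbr3*, betaglycan, 0.65; the repressor *Tgif1*, 0.62; *Bmp4*, 0.39) and 3 fell (*Id2*, *Bmp6* -0.76, and the decoy receptor *Bambi* -0.57), and none was called higher without WT replicate 2, 5 or 6 or Fosl-2(Tg) replicate 1 or 3. Of the MAP kinase list, 4 of 68 rose and 4 fell, the raised count being 2 without any 1 WT library other than replicate 3 or without Fosl-2(Tg) replicate 1, 2 or 3. The raised members were the Ras activator *Rasgrp1* (2.21 ± 0.55, FDR 0.033), the Ras inhibitor *Rasa3*, with 58.5 to 101 CPM in WT and 139 to 325 in Fosl-2(Tg) mice (1.22 ± 0.21), *Map3k8* (0.71) and *Map3k3* (0.31). *Rasgrf2* (-1.25), *Mapk4* (-1.16), *Map2k6* (-0.90) and *Mapk6* (-0.72) fell. The dual-specificity phosphatases, Sprouty and Spred proteins, feedback inhibitors of this pathway, had 0 of 26 called by edgeR, with 10 at an unadjusted p under 0.05. Of the PI3K, AKT and mTOR pathway, 5 of 60 rose, including *Rhebl1* (1.25) and the mTOR inhibitor *Deptor* (0.71), and 2 fell, the lipid kinase *Pik3c2b* (-1.09) and the arginine sensor *Castor1* (-0.52). The raised count was 2 without WT replicate 2 or 4 or Fosl-2(Tg) replicate 1, and the lowered count was 0 without WT replicate 1, 2, 3, 4 or 5 or Fosl-2(Tg) replicate 1, 2 or 3.

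Voltage-gated channels were called mainly as lower. Of 49 potassium channel genes, 4 fell and 1 rose, and 4 of 38 sodium and calcium channel genes fell with none higher (median -0.40, with 6 positive). *Kcnb2* (chromosome 1, 15356816 to 15793974), a delayed rectifier, lay between 3.01 and 10.1 CPM in WT (median 6.05) and between 0.704 and 1.94 in Fosl-2(Tg) mice (median 1.24; -2.16 ± 0.29, FDR 0.00582). The genotypes did not overlap.

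The accessory subunits *Kcnmb1* and *Kcnip1* had -1.69 and -1.47 at levels under 2 CPM. The calcium channel pore subunit *Cacna1a* lay between 62.7 and 92.3 CPM in WT and between 20.3 and 56.9 in Fosl-2(Tg) mice (-0.89 ± 0.19), the calcium channel subunit *Cacna2d1* had -0.71 and the acid-sensing channel *Asic1* -0.84. The exception was *Kcnk13*, a two-pore leak channel, with 3.15 to 5.61 against 5.68 to 13.2 CPM (1.07 ± 0.20, FDR 0.0139). *Best1*, a calcium-activated chloride channel, rose by 1.02. None of 26 TRP and Piezo channels and none of 26 ligand-gated channels was called by edgeR, with 2 and 7 at an unadjusted p under 0.05, and *Piezo1*, *Piezo2* and *Trpv4* had estimates of -0.09, -0.21 and 0.03. The counts of lowered potassium and of sodium and calcium channels stayed between 3 and 5 with any single library left out. Muscle expresses several of these channels, and summed muscle markers varied as given above. In the 8 libraries under 10000 CPM of those markers, 2 potassium channels and 1 sodium or calcium channel were called lower. The main fit called 4 and 4. These fewer libraries gave 113 genes past the FDR threshold in all, against 1032. *Kcnb2* had a log2 fold change of -1.73 in them (FDR 0.0449). With a muscle score as covariate, 212 of the 215 named genes kept the outcome of the main fit. The part of muscle content was not tested.

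Genes known from neurons and synapses were also lower, 6 of 50, with 1 higher. Beside *Srcin1*, these were the scaffold proteins *Dlg2* (1.86 to 7.83 CPM in WT, 0.528 to 1.78 in Fosl-2(Tg) mice, -2.04 ± 0.37, FDR 0.0139), *Dlg4* (-0.93) and *Homer2* (-0.65), the kinase *Camk2b* (24.9 to 90.9 against 11.6 to 24.7 CPM, -1.55 ± 0.28) and *Cplx2*, a regulator of vesicle fusion (-0.33). *Tubb3*, a neuronal tubulin, was the member that rose (1.33, FDR 0.0476). The list's median was -0.32, and 12 of 50 estimates were positive. Without WT replicate 2 or 5 or Fosl-2(Tg) replicate 1, 3 members were called lower. The summed Schwann cell and nerve markers lay between 703 and 901 CPM in WT and between 460 and 1254 in Fosl-2(Tg) mice, where *Ncam1* fell by 1.11 and *Erbb3* rose by 0.76. The part of nerve content in these values was not tested.

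**Figure D4:**
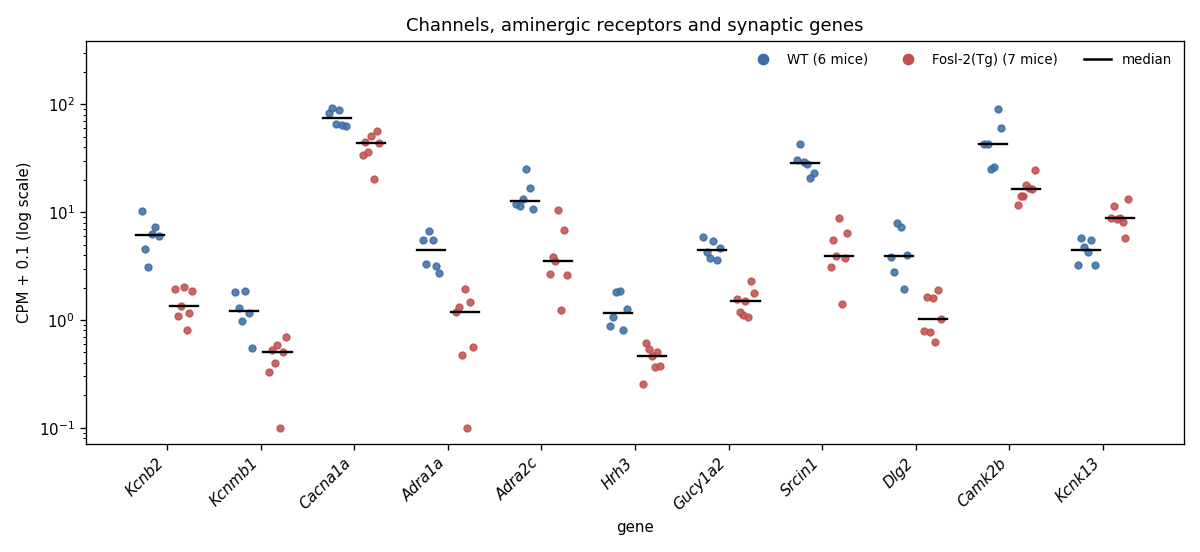
CPM plus 0.1 on a log axis of channel, aminergic receptor and synaptic genes and of *Gucy1a2*, 1 point per mouse with a bar at each median. Fosl-2(Tg) medians are below WT medians in 10 of the 11 genes, *Kcnk13* (median 8.73 against 4.39 CPM) being the exception.

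Solute carriers as a whole changed little more often than all genes, with 10 of 240 higher and 9 lower (7.92% against 6.51%). Apart from *Slc39a8* and *Slc10a6*, the glutamate transporter *Slc1a3* (5.65 to 11.6 against 9.88 to 20.2 CPM, 1.12 ± 0.19), the amino acid transporter *Slc43a1* (1.08) and the glucose transporters *Slc2a2* (1.49, at up to 2.02 CPM) and *Slc2a3* (0.60) rose. The lactate transporter *Slc16a1* lay between 72.6 and 121 CPM in WT and between 38.9 and 63.6 in Fosl-2(Tg) mice (-0.79 ± 0.13, FDR 0.00997), without overlap. The glutamate transporter *Slc1a6* and the zinc transporter *Slc39a13* fell by 1.51 and 0.71. *Abca1*, the cholesterol exporter, rose by 0.70. Without WT replicate 1 or 4 or Fosl-2(Tg) replicate 1, 1 solute carrier was called lower.

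In central carbon metabolism, the phosphofructokinases *Pfkl* (22.4 to 25.8 CPM in WT, 27.7 to 48.4 in Fosl-2(Tg) mice, 0.73 ± 0.12, FDR 0.00929) and *Pfkp* (0.46) and *Slc2a3* were the 3 of 26 glycolysis genes that rose, none falling. The glycolysis list as a whole had a median of -0.21, with 12 of 26 estimates positive. Its called share was 11.5%, against 6.51% of all genes. Of 37 genes of the citrate cycle, *Ogdh* fell (-0.53). None of 85 nuclear-encoded respiratory chain genes was called by edgeR (17 at an unadjusted p under 0.05), although 83 of the 85 estimates were negative (median -0.40). All 13 mitochondrially encoded members were negative (median -0.88, 12 at an unadjusted p under 0.05). Summed muscle markers were lower in Fosl-2(Tg) mice in median (1780 against 10485 CPM), and their part in this shift was not tested.

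Amino acid enzymes had 5 of 57 higher and 3 lower. *Cth* and *Cbs*, which act in sequence to make cysteine from homocysteine, rose by 1.93 and 0.65, and *Shmt1* and *Prodh*, of glycine and proline use, by 0.67 and 0.86. *Pycr1*, the last enzyme of proline synthesis, lay between 18.6 and 33.4 CPM in WT and between 1.85 and 16.1 in Fosl-2(Tg) mice (-1.44 ± 0.38, FDR 0.0387), *Ckb*, a creatine kinase, between 84.8 and 117 against 22 to 66.9 CPM (-1.18 ± 0.20), and *Odc1*, of polyamine synthesis, had -0.66. Without WT replicate 1, 2, 4 or 5 or Fosl-2(Tg) replicate 1, 1 amino acid enzyme was called higher. Of 43 genes of nucleotide metabolism, 4 rose and 2 fell. *Xdh*, which makes uric acid, lay between 115 and 219 CPM in WT and between 256 and 601 in Fosl-2(Tg) mice (1.05 ± 0.21, FDR 0.0174), *Ampd3* between 30.3 and 80.2 against 89.9 to 182 CPM (1.17 ± 0.21), and *Pnp* had 0.45, whereas *Ada* and *Entpd2* fell by 0.48 and 0.54.

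In lipid metabolism, *Fasn* (209 to 310 against 79 to 186 CPM, -0.71 ± 0.16) and *Fads2* (-0.69) fell and *Dgat1* (0.35) and *Fads3* (0.38) rose. Hypoxia-responsive genes had 5 of 28 higher and 2 lower. *Adm*, the vasodilator adrenomedullin, lay between 2.67 and 4.88 CPM in WT and between 5.75 and 26.9 in Fosl-2(Tg) mice (1.64 ± 0.32, FDR 0.0157), and *Bnip3* and *Ndrg1* rose by 1.03 and 0.99, while *P4ha1*, a collagen prolyl hydroxylase, and the secreted factor *Stc1* had -0.91 and -1.57. The count of raised hypoxia genes was 2 without WT replicate 1, 2, 4 or 5 or Fosl-2(Tg) replicate 1 or 2. The iron store *Fth1* lay between 542 and 676 against 709 to 1536 CPM (0.73 ± 0.15). Ribosomal protein genes had 3 of 80 called (3.75%), all higher, with 77 positive estimates and a median of 0.30.

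Cell adhesion genes of the cadherin superfamily were called only as lower, 12 of 88, and 12 of the 88 estimates were positive (median -0.32). *Fat3*, a giant cadherin of planar polarity, lay between 5.91 and 24.3 CPM in WT (median 20.6) and between 1.5 and 11.3 in Fosl-2(Tg) mice (median 5.06; -1.84 ± 0.40). *Clstn2*, a synaptic cadherin, lay between 2.8 and 5.41 against 0.528 to 2.35 CPM (-1.55 ± 0.29), *Cdh18* had -1.12 and the desmosomal *Dsc2* -1.09. The other 8 were beta-protocadherins, with log2 fold changes from -1.15 (*Pcdhb6*) to -0.30 (*Pcdhb16*). These genes are close copies of each other, so their counts are not independent and reads may have been shared among them. Without WT replicate 1, 4 members of the list were called lower.

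Outside the fibrillar collagens, the called genes of the matrix were mostly lower. Of 32 genes of collagen crosslinking and processing, 9 fell and none rose, and 5 were called without WT replicate 1, 2 or 4 or Fosl-2(Tg) replicate 1, 2 or 3. *Loxl2*, a lysyl oxidase, lay between 623 and 1117 CPM in WT (median 722) and between 96.4 and 394 in Fosl-2(Tg) mice (median 296; -1.46 ± 0.28, FDR 0.0151), *Pcolce*, a procollagen processing enhancer, between 873 and 1036 against 183 to 649 CPM (-1.16 ± 0.24), and *Adamts2*, a procollagen proteinase, between 631 and 1112 against 186 to 532 CPM (-1.25 ± 0.22). Of 63 matricellular proteins and glycoproteins, 9 fell, including *Tnmd*, tenomodulin (-2.03 ± 0.53), and 2 rose. *Thbs1*, thrombospondin 1, lay between 897 and 1638 against 1522 to 3675 CPM (1.11 ± 0.20, FDR 0.0128), and *Cilp*, a cartilage intermediate layer protein, rose by 0.77. The matricellular count was 3 lower without WT replicate 1 or 4 or Fosl-2(Tg) replicate 1. *Galnt15*, a mucin-type glycosyltransferase, lay between 322 and 1421 against 1140 to 3723 CPM (1.71 ± 0.38, FDR 0.0225).

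Proteinases and their inhibitors changed in both directions, 9 of 98 higher and 6 lower. The raised count was 4 without WT replicate 1 or 4 or Fosl-2(Tg) replicate 1, and 0 in the 8 libraries low in muscle markers. *Mmp13*, a collagenase, had the largest estimate of any named gene (7.34 ± 1.99, FDR 0.0444), but it rested on 2 Fosl-2(Tg) mice, replicate 6 with 1225 CPM and replicate 7 with 492, while the other Fosl-2(Tg) mice lay between 0.927 and 3.39 and WT between 0.361 and 4.09. Without replicate 6 its log2 fold change was 5.78 (FDR 0.0589), and its call was lost in 10 of the 13 fits that left out 1 library. The same 2 mice were highest for *Cd74*, the chain that accompanies MHC class II, with 226 and 373 CPM against 4.23 to 24.6 in the other Fosl-2(Tg) mice and 1.92 to 16.2 in WT (3.89 ± 1.08, FDR 0.0473), and without replicate 7 its log2 fold change was 2.93 (FDR 0.0713), the call being lost in 11 of those 13 fits. The serine proteinase inhibitors *Serpina3n* (8.83 to 33.2 against 25.9 to 146 CPM, 2.30 ± 0.46) and *Serpina3m* (2.82 ± 0.78) rose, with the reserve that the family's genes are near-copies. *Mme*, neprilysin, fell by 1.56 and *Ctsk*, cathepsin K, by 1.19.

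Genes of myeloid cells outside the study's list rose and fell. *Siglec1*, a sialic acid receptor of tissue macrophages (chromosome 2, 130911140 to 130928685), had one of the 5 lowest FDRs, with 7.93 to 12.2 CPM in WT (median 9.05) and 16.6 to 44.3 in Fosl-2(Tg) mice (median 32.2; 1.63 ± 0.21, FDR 0.00465). *Fcgr2b*, the inhibitory Fc receptor, lay between 16.8 and 29.1 against 39.7 to 113 CPM (1.46 ± 0.23), *Clec10a*, a galactose lectin, between 1.7 and 3.2 against 3.99 to 8.16 CPM (1.13 ± 0.21), and the chemokine *Ccl6* between 4.15 and 13.3 against 11.1 to 49.8 CPM (1.96 ± 0.37). Of 51 genes tested in a list of Fc receptors, C-type lectins and related proteins, 4 rose and 4 fell (15.7% against 6.51% of all genes). This list is not limited to myeloid genes. The raised ones were *Siglec1*, *Fcgr2b*, *Clec10a* and *Clec7a*. The lowered ones were *Clec3a* (-2.45) and *Clec2l* (-1.46), not known as myeloid genes, and *Pilra* (-1.17) and *Clec4n* (-0.90). Without WT replicate 1, 3 were called higher and 0 lower. *Cx3cr1*, the fractalkine receptor of another macrophage subset, lay between 3.68 and 9.2 CPM in WT (median 5.82) and between 0.704 and 3.15 in Fosl-2(Tg) mice (median 1.75; -1.81 ± 0.28, FDR 0.00804). The general macrophage markers *Csf1r* (208 to 306 against 238 to 366 CPM) and *Cd68* (16 to 29 against 14.9 to 34.6 CPM) overlapped between genotypes. *Atp6v0d2*, a proton pump subunit of osteoclasts and macrophages, rose by 2.53 ± 0.49 and the acid phosphatase *Acp5* was also called higher, while *Ctsk*, the other osteoclast marker called, fell.

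The genotype difference was set against that of the early cohort in 1 fit of all 28 libraries, in which 1195 of 16082 genes (7.43%) differed by the interaction term. Of the 26 genes that the naming rule took for the size of their established change or their FDR, 24 had an interaction FDR of at most 0.05, the exceptions being *Slc10a6* (interaction FDR 0.137) and *Nfil3* (0.375), for which the early log2 fold changes were 1.08 and 1.01. In the early cohort, 25 of the 26 could be tested, none passed, and 23 had estimates under 1 in size. Early mice were all male and established mice nearly all female, so age and sex cannot be told apart in this comparison.

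**Figure D5:**
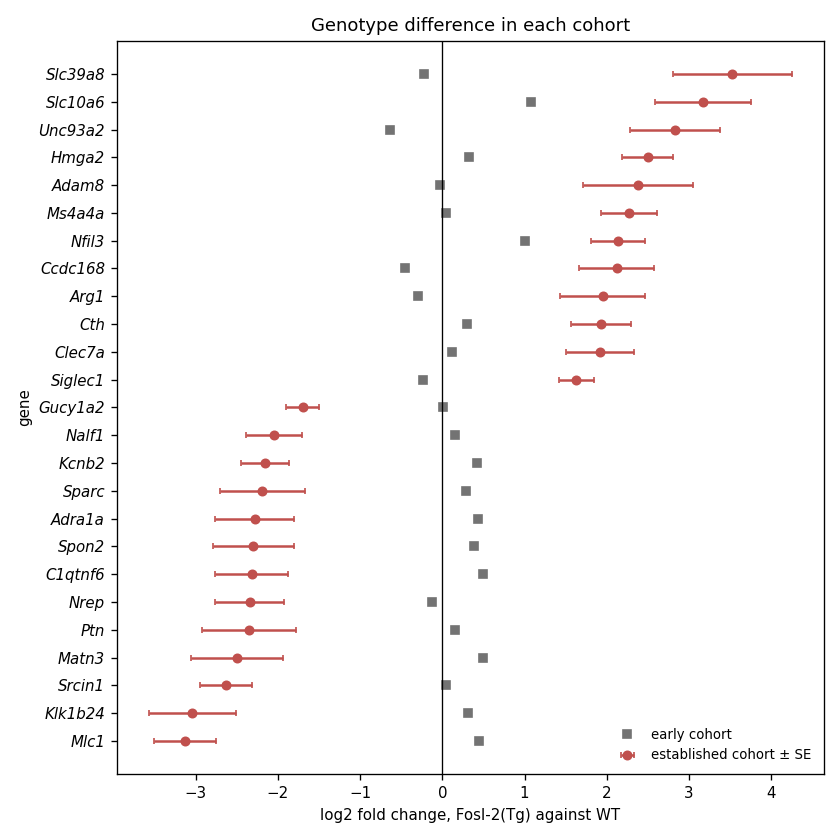
Log2 fold change of Fosl-2(Tg) against WT mice for the 25 genes tested in both cohorts, with the established value and its standard error as red circles and the early value as grey squares. The early values lie between -0.64 (*Unc93a2*) and 1.08 (*Slc10a6*), and the genes were chosen for their established values, so the ranges of the cohorts are not comparable.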

How the data were processed

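Bulk RNA-sequencing libraries of 13 established mice were analysed, with 15 early libraries for the interaction. The authors depleted ribosomal RNA, prepared libraries with a kit that does not mark strand, mapped reads with STAR to GRCm39 (GENCODE M26) and counted them per gene with featureCounts. The deposited values are these raw counts, without normalization. Handling of reads that map to several places is not given in the sources used here, and reads of a gene and its antisense partner cannot be told apart. Names and coordinates came from GENCODE M39 on the same assembly, which named 25505 of 25719 genes, and promoters from RefSeq tables on GRCm38.p6.

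Counts were scaled by TMM and tested with edgeR 4.0.16 (quasi-likelihood, no covariates) in R 4.3.3, after filterByExpr (minimum count 10, minimum total 15), with p-values adjusted by Benjamini-Hochberg across the genes that passed the filter. Errors are standard errors (SE), and the tests are two-sided. For each group, lowest, median and highest CPM are given. Where no tool is named beside an FDR it is that of edgeR.

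The genes and the 99 function lists were chosen with earlier results of these data known. Named genes were *Fosl2*, per direction the 12 DEGs with the largest changes whose genotypes did not overlap and whose higher group had a mean of at least 1 CPM (without collagens, 6 macrophage genes of the study's text and unnamed transcripts), the 5 with the lowest FDR, and up to 2 called members per list and direction (3 in lists with 10 or more). Further members were named after their values were seen, and some called members are not reported here. Alternatives were DESeq2 1.42.0, RLE scaling, no filter, a mean of at least 1 CPM, all 28 libraries in 1 fit, a block for the replicate number, weighted limma 3.58.1 voom, sex or a muscle score as covariate, females only, removal of muscle, erythroid and keratinocyte genes, each library left out and, added after seeing the data, the 8 libraries under 10000 CPM of muscle markers. The scripts were tested on simulated data.

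Each library is 1 mouse. Mice were not treated as pairs. Deviations of same-numbered mice of the 2 genotypes had correlations of 0.322, 0.05, 0.292, 0.69, 0.484 and -0.223 for replicates 1 to 6. Those of differently numbered mice were not computed, so whether replicate numbers pair the mice is not known. No 2 libraries agreed within sampling noise.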

Additional observations from a re-analysis of the deposited data

Results flagged for a closer look

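For the 27 genes that the naming rule took by size of change, FDR or as the transgene, 54 groups of established mice were examined for a mouse far from the rest of its group, judged by its gap to the nearest mouse relative to the range of the group. For normally distributed values the rule would mark about 1 in 20 groups, and 11 were marked. The CPM were not put on a log scale, the groups share mice, and the genes were chosen by their values. That rate is therefore no reference for the 11 marks. Fosl-2(Tg) replicate 5, the male, stood highest for *Slc39a8* (356 CPM), *Slc10a6* (29), *Hmga2* (43.8), *Ms4a4a* (45.4) and *Ccdc168* (10.8), and it also had the lowest summed tendon fibroblast markers (9791 CPM). Fosl-2(Tg) replicate 7 stood highest for *Adam8* (29.4 CPM), *Ptger2* (4.08), *Arg1* (40.8) and *Clec7a* (26.6). WT replicate 3 was lowest for *Mlc1* (0.674 CPM), and Fosl-2(Tg) replicate 6 was highest for *Klk1b24* (0.811 CPM).

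The genotype effect differed between cohorts by the interaction term for 24 genes, given as the established minus the early log2 fold change. It was positive for *Slc39a8* (3.74), *Unc93a2* (3.46), *Ccdc168* (2.56), *Adam8* (2.40), *Arg1* (2.24), *Ms4a4a* (2.21), *Hmga2* (2.16), *Siglec1* (1.85), *Clec7a* (1.79), *Ptger2* (1.65) and *Cth* (1.61). It was negative for *Mlc1* (-3.58), *Klk1b24* (-3.36), *Matn3* (-3.0), *C1qtnf6* (-2.81), *Spon2* (-2.71), *Adra1a* (-2.71), *Srcin1* (-2.67), *Kcnb2* (-2.59), *Ptn* (-2.51), *Sparc* (-2.49), *Nrep* (-2.22), *Nalf1* (-2.21) and *Gucy1a2* (-1.70). Cohort and sex cannot be told apart here, and the genes were chosen for their established change.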

How the results depend on the processing

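The 311 DEGs and 1032 genes past the FDR threshold became 599 and 2177 with DESeq2, 189 and 560 in females only, and 58 and 113 in the 8 libraries under 10000 CPM of muscle markers (chosen after seeing the data, fewer libraries). The FDR count was 1663 with all 28 libraries in 1 fit, 1984 with limma voom and 1619 with a muscle score as covariate. With 1 library left out, DEGs numbered 151 (without WT replicate 1) to 358 and genes past the FDR threshold 361 to 1166. Interaction of genotype with cohort passed the FDR threshold in 1195 genes, and in 725 without the established males. With a replicate block there were 374 DEGs and 914 genes past the FDR threshold, and 53 of the 214 named calls were lost. Whether shared numbers pair the mice was not tested (correlations -0.223 to 0.69). Of 215 named genes, 32 lost no call in the alternatives run and 0 changed sign. The 32 include *Fosl2*, which was not called in the main fit but was called without WT replicate 2. Except where fewer libraries entered the fit, the cause was not tested. The lowest depth, 9664327 counts, limits genes near 1 CPM.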
